A study of Mus musculus with 22 samples.

Results

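Cytochrome P450 genes were followed in the distal colon of C57BL/6, Winnie and Winnie-Prolapse mice. The members were the genes of the count table whose symbol begins with Cyp followed by a family number, a subfamily letter and a gene number, whose biotype was given as protein coding, and which do not belong to the Cyp1a or Cyp1b subfamilies. This rule used no measured value and found 85 of 46078 genes, but the members were chosen with earlier results of these data known. The libraries were made from the colon of 22 mice: 8 C57BL/6 wild-type mice aged 14 weeks (4 males, 4 females), 7 Winnie mice aged 14 weeks (3 males, 4 females), labelled as inflamed, and 7 Winnie-Prolapse mice aged 18 weeks (4 males, 3 females), labelled as severely inflamed. Winnie mice carry a missense mutation of the mucin gene Muc2 and develop colitis without treatment; the C57BL/6 mice came from the same breeding colony, and Winnie-Prolapse mice are Winnie mice labelled as having prolapse. Age goes with the Winnie-Prolapse group, so an effect of the 4 further weeks and of the prolapse cannot be told apart. Whole tissue was sequenced, so fewer cells of a type and less RNA per cell cannot be told apart either.

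Cytochromes P450 are heme-containing monooxygenases. Most sit in the membrane of the endoplasmic reticulum and take electrons from NADPH through the reductase Por, while a few mitochondrial enzymes take them from ferredoxin and its reductase Fdxr. Enzymes of the CYP2 and CYP3 families oxidise drugs, dietary compounds and fatty acids, CYP4 enzymes hydroxylate the end of fatty acid and leukotriene chains, and other families make or break down bile acids, steroid hormones, vitamin D and retinoic acid. The intestinal epithelium is the main site of P450 activity outside the liver, and Cyp2c55, which oxidises arachidonic acid, is known for its high level in mouse colon. By name and known substrates, the members fell into 13 of subfamily CYP2C, 30 other CYP2 genes, 7 CYP3A genes, 19 CYP4 genes, 5 genes of bile acid and cholesterol metabolism, 6 of steroid hormone synthesis, 3 of retinoic acid breakdown and 2 of vitamin D metabolism.

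The Cyp2c genes lie in a cluster on chromosome 19, and 3 of them fell in Winnie-Prolapse mice past the study's limits. Their promoters are shown because these members fell together: Cyp2c68 and Cyp2c69 have near-identical start regions, and Cyp2c55, whose level was far higher, has a different one. The sequences run from 250 bases before to 50 bases after the start site given by RefSeq (GRCm38.p6), at chr19:39006769-39007068 for Cyp2c55 on the plus strand, and at chr19:39741052-39741351 for Cyp2c68 and chr19:39886720-39887019 for Cyp2c69 on the minus strand. Capitals mark 4 motifs searched on both strands: AGGTCA, the half-site of many nuclear receptors, GTTAAT, a half-site of HNF1 factors, TTTATNG, a CDX site, and TATAAA, the letters of the TATA box.
Cyp2c55: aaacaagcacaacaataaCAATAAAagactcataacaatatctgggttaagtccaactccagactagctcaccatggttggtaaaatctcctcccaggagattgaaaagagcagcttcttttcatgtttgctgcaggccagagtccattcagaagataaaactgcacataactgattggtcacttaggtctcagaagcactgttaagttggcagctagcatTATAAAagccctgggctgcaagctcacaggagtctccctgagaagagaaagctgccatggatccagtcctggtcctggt
Cyp2c68: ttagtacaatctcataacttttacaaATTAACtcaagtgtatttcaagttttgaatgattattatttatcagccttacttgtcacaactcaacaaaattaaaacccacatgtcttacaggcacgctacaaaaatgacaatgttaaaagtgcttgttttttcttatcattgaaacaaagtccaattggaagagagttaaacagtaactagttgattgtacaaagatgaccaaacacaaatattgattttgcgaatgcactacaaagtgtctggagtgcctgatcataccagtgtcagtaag
Cyp2c69: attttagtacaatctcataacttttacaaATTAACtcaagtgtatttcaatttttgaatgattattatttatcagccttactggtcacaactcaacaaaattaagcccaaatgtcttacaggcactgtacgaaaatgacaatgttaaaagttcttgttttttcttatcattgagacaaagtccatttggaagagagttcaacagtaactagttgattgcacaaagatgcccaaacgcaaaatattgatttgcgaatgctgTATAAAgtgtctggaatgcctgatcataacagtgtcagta
The Cyp2c68 and Cyp2c69 promoters were 91.1% identical in a global alignment, against 51.8% for Cyp2c55 and Cyp2c68 and 51.7% for Cyp2c55 and Cyp2c69. Counted from the RefSeq start site, TATAAA began 29 bases before it in Cyp2c55. In Cyp2c69 it began inside the transcribed part, at position 11 with the start site as 1. The capitals near the 5′ end are a CDX site in Cyp2c55 and an HNF1 half-site in the other pair. The GENCODE annotation starts Cyp2c68 at 39741054 and Cyp2c69 at 39886799, other places than RefSeq, so positions in these 2 genes hold for the RefSeq start alone. Promoters were found for 63 of the 85 members (72 promoters), and 41.7% of these held TATAAA against 13.6% of all 32851 promoters. The half-site AGGTCA stood in 25.0% of the members' promoters against 16.3% of all, GTTAAT in 15.3% against 7.10%, and TTTATNG in 13.9% against 10.9%. In the 15 promoters of members lower in Winnie-Prolapse at the wider limits, the shares were 6.67% for AGGTCA and for TTTATNG, 1 promoter each, and 53.3% for TATAAA, and 3 of the 15 held GTTAAT. These matches describe the letters in the window and are no evidence of binding.

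Before any comparison, 1 library has to be described. The library labelled C57BL/6 replicate 7 had 0.217 CPM (counts scaled to a library total of 1000000) of Hoxd13, a homeobox gene of the hindgut, where the other 7 C57BL/6 libraries had 132 to 288 CPM, and its summed level of 5 distal Hox genes (a list chosen after the data were seen) was 18.3 CPM against 600.2 to 902 CPM. This goes against the label distal colon. Of the 33 members above 1 CPM in C57BL/6, 14 were lower and 9 were higher there than in every other C57BL/6 library. Cyp2c65 stood at 189.7 CPM against 3.22 to 19.6 CPM, Cyp4b1 at 18.7 against 0.772 to 1.85 CPM, Cyp2d12 at 10.2 against 159 to 229 CPM and Cyp2f2 at 1.27 against 31.0 to 42.3 CPM. Each other C57BL/6 library was outside the range of the rest of its group, replicate 7 included, for 3 to 10 of these 33 members. Values below are given with this library and, where it matters, without it. Libraries held 24817527 to 36344372 counts. A count of 0 allows a level of up to 3 counts, which is 0.0825 to 0.121 CPM, and this limit covers counting error only.

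In C57BL/6 colon, P450 expression was concentrated in a few genes. The members summed to 2618 ± 926 CPM (SD, n = 8), and 4 of them averaged above 100 CPM, 19 above 10 CPM and 33 above 1 CPM, while 43 averaged under 0.1 CPM and 10 had no count in any of the 22 libraries. Per kilobase of exon, Cyp2c55 was first at 507 CPM, followed by Cyp2d34 at 185, the intestinal CYP3A enzyme Cyp3a13 at 72.9, Cyp2c68 at 57.6, Cyp2d10 at 44.0 and Cyp2d12 at 42.2. Next came the fatty acid and leukotriene hydroxylases Cyp4f14 at 32.1 and Cyp4f16 at 21.9, the mitochondrial sterol hydroxylase Cyp27a1 at 21.4 and Cyp4f40 at 18.5 CPM per kilobase. Only between Cyp2d34 and Cyp3a13 were these neighbours apart in every library; all other neighbours had overlapping ranges. Without replicate 7 Cyp2c55 averaged 352 and Cyp2d34 195 CPM per kilobase, with Cyp2c55 the higher in 6 of 7 libraries, and Cyp2d12 moved above Cyp2d10 and Cyp27a1 above Cyp4f14. The members without a count included Cyp19a1, the aromatase that makes oestrogens, and Cyp4a14. Of members known from liver, Cyp3a11 was at most 0.145 CPM in C57BL/6 and Cyp8b1 had at most 10 counts in any library. Cyp2e1 was 2.67 to 16.6 CPM in C57BL/6 without replicate 7, which had 27.3 CPM.

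Winnie-Prolapse mice were compared with C57BL/6 mice to ask what differs in severe disease. Of 37 members that passed the filter on low counts, 7 were downregulated (18.9%) and 2 were upregulated (5.41%) at an adjusted p under 0.001 and at least 1.5-fold (edgeR quasi-likelihood test, Benjamini-Hochberg over all genes tested). Over all 17397 genes tested, 8.47% were lower and 9.84% higher at these limits. Cyp2c55, Cyp2c68, Cyp2c69, Cyp2a12, Cyp2d22, Cyp2d34 and Cyp4f16 fell, and Cyp2j6 and Cyp7b1 rose. At wider limits, an adjusted p under 0.05 and 1.5-fold, 20 members were lower and 5 higher, that is 54.1% and 13.5% of those tested, against 17.7% and 16.7% of all genes. The median log2 fold change was -0.97 over the 37 members and -0.01 over all genes. A member expressed in C57BL/6 alone passes the filter through that group, so these counts describe the genes that could be tested and not the 85. Without C57BL/6 replicate 7, 12 members were lower and 2 higher, against 9.35% and 10.8% of all genes, and the 5 added were Cyp2c44, Cyp2c67, Cyp2d12, Cyp27a1 and Cyp11a1.

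**Figure D1:**
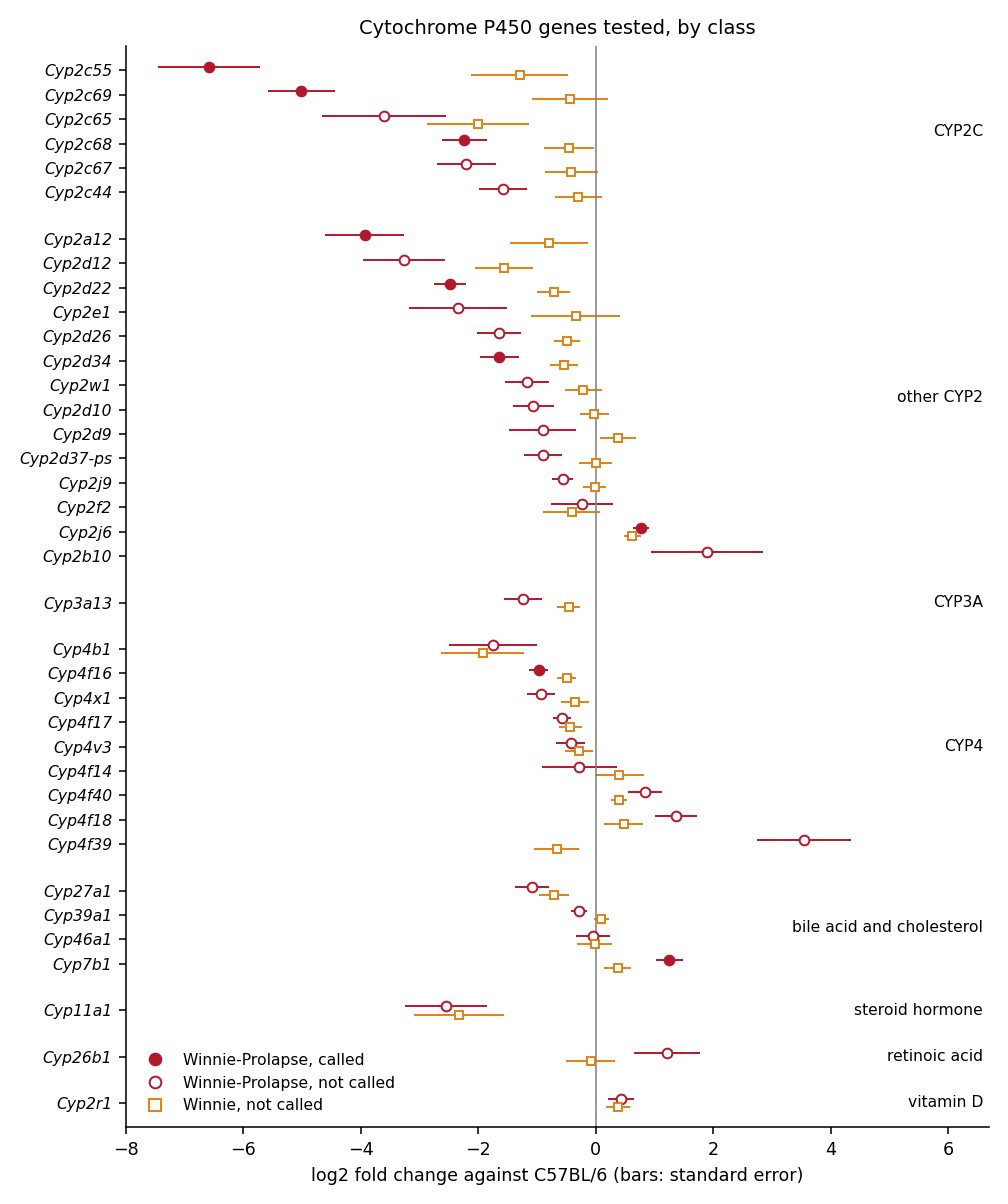
Log2 fold change (x axis, with standard error) of the members tested in Winnie-Prolapse (red circles, filled where called at the study's limits) and Winnie (orange squares) against C57BL/6, grouped by class; both comparisons use the same C57BL/6 libraries. The 6 CYP2C genes lie left of 0 in Winnie-Prolapse, from -1.57 to -6.58, and no Winnie square is filled.

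Of the CYP2C genes 3 fell, and Cyp2c55 had the largest change of the 37 members. Cyp2c55 (chr19:39007019-39042693, plus strand) ranged from 331 to 3166 CPM in C57BL/6 (median 532), where the upper end is replicate 7 and the next library had 1599.7 CPM, and from 0.564 to 21.2 CPM (median 9.34) in Winnie-Prolapse, so that each of the 7 Winnie-Prolapse libraries lay under the lowest C57BL/6 library. The decrease was 95.8-fold (log2 fold change -6.58, SE 0.868, adjusted p = 2.2e-05, edgeR), and -6.03 without replicate 7 (adjusted p = 1.42e-05). Its share of all member counts averaged 33.2% ± 18.0 (SD, n = 8) across the C57BL/6 libraries, and this share was down to 1.26% ± 0.853 (SD, n = 7) with prolapse. Cyp2c69 (chr19:39842814-39886799, minus strand), a near relative, was expressed at a much lower level, 2.58 to 9.54 CPM (median 4.86) in C57BL/6 and 0 to 0.393 CPM (median 0.0970) in Winnie-Prolapse. These groups did not overlap, and its log2 fold change was -5.01 (SE 0.564, adjusted p = 5.41e-06, edgeR). This was read from 33 counts in the 7 Winnie-Prolapse libraries together and 1222 in C57BL/6. Cyp2c69 passed the filter on low counts through the C57BL/6 group, and 2 of the 7 Winnie-Prolapse libraries had no count. Its Winnie-Prolapse median lies within the limit that a count of 0 allows, so the size of the fold is uncertain. Cyp2c68 (chr19:39688834-39741054, minus strand) fell with less spread: 77.6 to 138 CPM in 7 C57BL/6 libraries and 8.66 CPM in replicate 7, against 9.67 to 24.7 CPM in Winnie-Prolapse (log2 fold change -2.23, SE 0.387, adjusted p = 0.000218, edgeR). The groups overlap only through replicate 7, and without it the adjusted p was 1.36e-07 at -2.40. With limma-voom on all libraries Cyp2c68 was not called at the study's limits.

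The other CYP2C genes were lower at the wider limits alone. Cyp2c67 stood at 0.683 to 2.19 CPM in C57BL/6 without replicate 7 and at 0.0806 to 0.420 CPM in Winnie-Prolapse (log2 fold change -2.20, adjusted p = 0.00199, edgeR). It passed the filter on low counts through C57BL/6 and had 46 counts over the Winnie-Prolapse libraries, at most 13 in any. Cyp2c44 changed by -1.57 (adjusted p = 0.00461, edgeR). Cyp2c65 changed by -3.61 (adjusted p = 0.00937), but by -1.62 (adjusted p = 0.0387) once replicate 7 was left out. The remaining 7 CYP2C genes had at most 10 counts in any library and did not pass the filter. One of them, Cyp2c40, had 53 counts over the C57BL/6 libraries and 2 over Winnie-Prolapse, and was called lower by edgeR without the filter (adjusted p = 5.37e-05) and by DESeq2 (5.19e-06). Reads of this cluster can be shared. Of the 100-base windows in GENCODE transcripts, 35.4% in Cyp2c69, 34.4% in Cyp2c40, 23.7% in Cyp2c67 and 19.8% in Cyp2c68 occur exactly in another gene. The other gene was most often Cyp2c40 or Cyp2c69, and no window of Cyp2c55 was shared. How the counting treated such reads was not stated, so the levels of Cyp2c40, Cyp2c67, Cyp2c68 and Cyp2c69 are less certain than that of Cyp2c55.

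**Figure D2:**
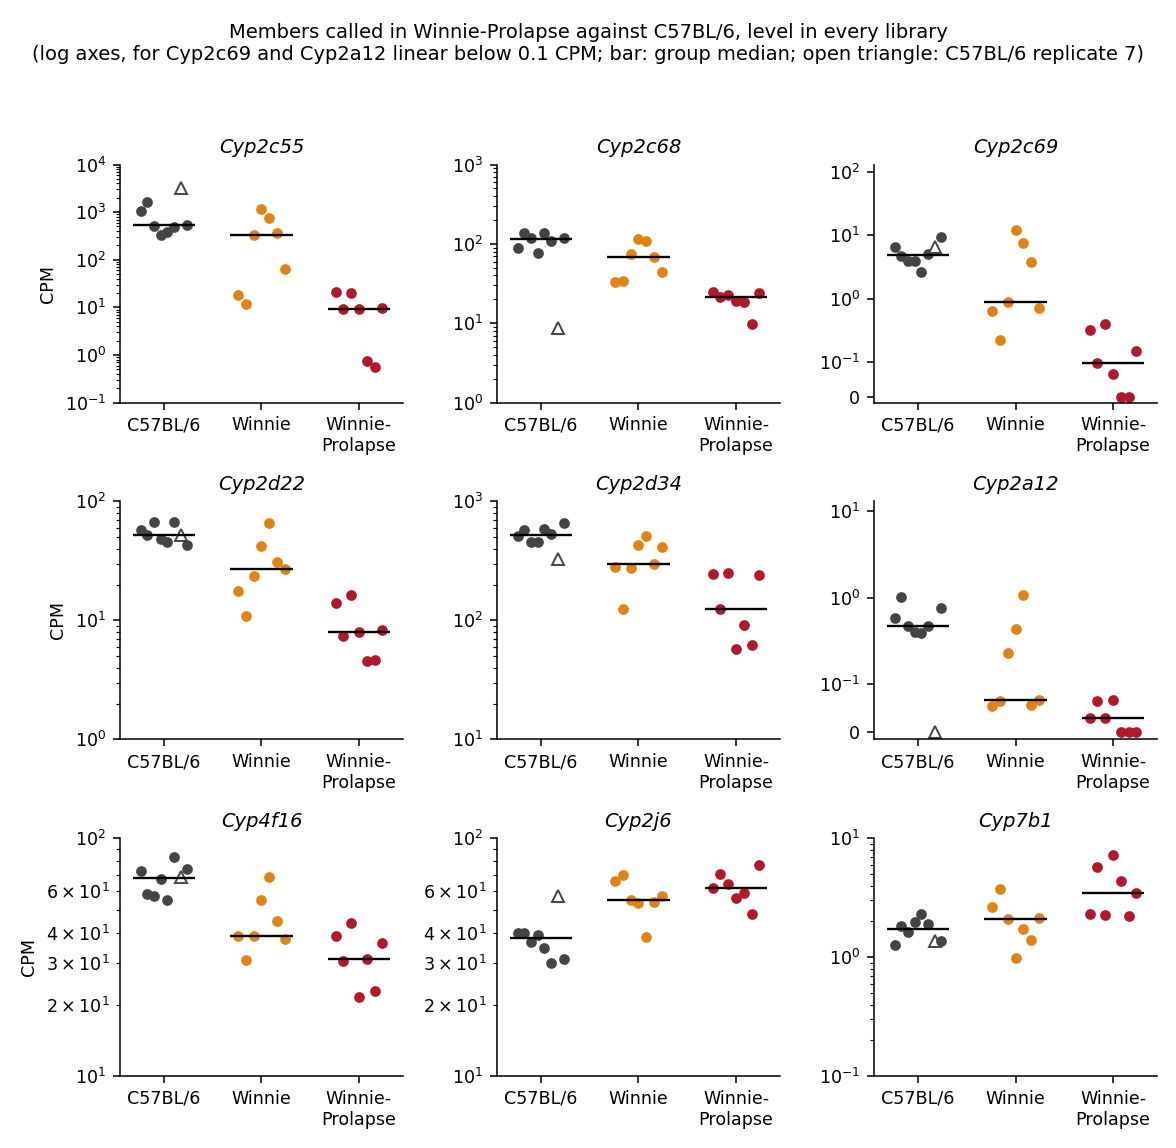
Level in CPM (log axes; linear below 0.1 CPM for Cyp2c69 and Cyp2a12) of the 9 members called in Winnie-Prolapse against C57BL/6, with 1 point a library, a bar at the group median and an open triangle for C57BL/6 replicate 7. The Winnie points of Cyp2c55 run from 11.6 to 1164 CPM, across the gap between the other groups.

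The CYP2D genes lie together on chromosome 15 and encode microsomal enzymes that oxidise drugs and other small molecules. Cyp2d22 (chr15:82370527-82380260, minus strand) was 42.6 to 67.6 CPM (median 52.1) in C57BL/6 and 4.58 to 16.3 CPM (median 8.07) in Winnie-Prolapse, with no overlap and with replicate 7 inside its group at 51.9 CPM. It fell 5.59-fold (log2 fold change -2.48, SE 0.271, adjusted p = 4.29e-06, edgeR). Cyp2d34 (chr15:82615965-82620946, minus strand), the highest of them, went from 329 to 659 CPM (median 522) to between 57.1 and 252 CPM (median 125), again without overlap (log2 fold change -1.64, SE 0.330, adjusted p = 0.000727). Its call lies near the limit: leaving out any 1 library in turn kept it in 4 of 15 fits, with an adjusted p of up to 0.0024. Cyp2d12 stood at 159 to 229 CPM in C57BL/6 without replicate 7 and at 2.14 to 42.9 CPM in Winnie-Prolapse. It missed the study's limit with replicate 7 (log2 fold change -3.26, SE 0.702, adjusted p = 0.00121, edgeR) and passed it without (-3.43, adjusted p = 0.000249). Cyp2d26 (-1.65, adjusted p = 0.00200) and Cyp2d10 (-1.06, adjusted p = 0.0185) passed the wider limits. Shared 100-base windows made up 11.7% of Cyp2d10 and 1.73% of Cyp2d12, and under 1% of Cyp2d22, Cyp2d26 and Cyp2d34.

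Other CYP2 genes moved both ways. Cyp2j6 (chr4:96516138-96553661, minus strand), of a subfamily that makes epoxides of arachidonic acid, was 30.0 to 57.4 CPM (median 38.0) in C57BL/6 and 48.2 to 77.5 CPM (median 61.9) in Winnie-Prolapse. It rose 1.71-fold (log2 fold change 0.77, SE 0.134, adjusted p = 0.000221, edgeR), and the one C57BL/6 library inside the Winnie-Prolapse range was replicate 7 at 57.4 CPM; without it the highest was 40.0 CPM. Cyp2a12 (chr7:27029081-27037375, plus strand), an enzyme known from liver, was at a low level, 0.386 to 1.03 CPM in C57BL/6 without replicate 7. It passed the filter on low counts through the C57BL/6 group, and of the 15 fits that left out 1 library it stayed in, and was called in, 8. It had 118 counts over the 8 C57BL/6 libraries, none of them in replicate 7, and 6 counts over the 7 Winnie-Prolapse libraries, at most 2 in any (log2 fold change -3.93, SE 0.673, adjusted p = 0.000198, edgeR).

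**Figure D3:**
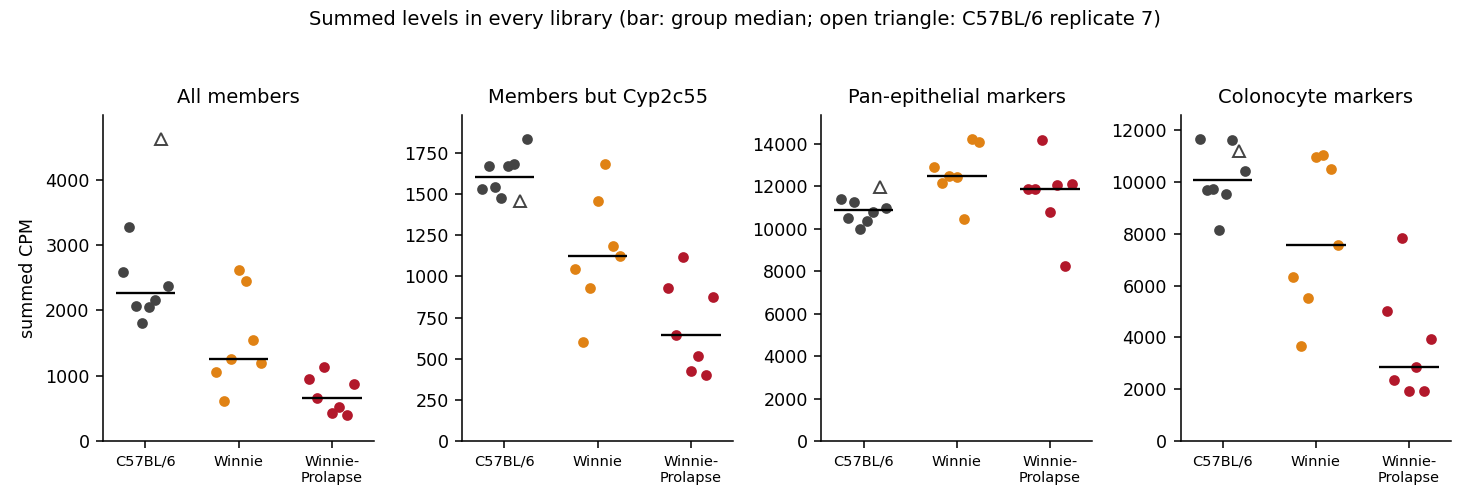
Summed CPM (linear axes from 0) of the 85 members, of the members other than Cyp2c55, of 10 pan-epithelial and of 10 colonocyte markers, with 1 point a library, a bar at the group median and an open triangle for C57BL/6 replicate 7. The members fell from 1807 to 4625 CPM in C57BL/6 to 400.3 to 1139 CPM in Winnie-Prolapse, while the pan-epithelial sums of the groups overlap.

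Of the CYP3A and CYP4 genes 1 fell at the study's limits, Cyp4f16. Cyp3a13, the only CYP3A gene that could be tested, was 165 to 257 CPM (median 212) in C57BL/6 and 33.6 to 173 CPM (median 54.9) in Winnie-Prolapse, of which 6 of 7 libraries lay below the C57BL/6 range (log2 fold change -1.23, SE 0.324, adjusted p = 0.00506, edgeR). Cyp4f16 (chr17:32536558-32551798, plus strand) fell 1.96-fold from 54.8 to 83.1 CPM (median 68.0) to 21.6 to 43.9 CPM (median 31.0), without overlap (log2 fold change -0.97, SE 0.165, adjusted p = 0.000186). It was called in each of the 15 fits that left out 1 library, but not with C57BL/6 replicate 7 and Winnie-Prolapse replicate 6 both left out. Cyp4f18, a leukotriene hydroxylase of neutrophils, stood higher at the wider limits, at 0.978 to 5.98 CPM in C57BL/6 and 3.49 to 14.6 CPM in Winnie-Prolapse (log2 fold change 1.37, SE 0.359, adjusted p = 0.00474). Cyp4f40 was 39.04 to 55.6 CPM in C57BL/6 and above this range in 5 of 7 Winnie-Prolapse libraries, but at 19.3 CPM in replicate 4 (log2 fold change 0.84, adjusted p = 0.0207), and it missed the wider limits without replicate 1 and passed the study's without replicate 4 (1.03, adjusted p = 0.00026). Cyp4f14 gave no direction: its change was -0.27 with C57BL/6 replicate 7, which stood at 248 CPM, and 0.30 without.

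Of the 5 genes of bile acid and cholesterol metabolism, 1 rose. Cyp7b1 (chr3:18071950-18243338, minus strand), which hydroxylates oxysterols, was 1.26 to 2.31 CPM (median 1.73) in C57BL/6 and 2.22 to 7.21 CPM (median 3.49) in Winnie-Prolapse, above the C57BL/6 range in 4 of 7 libraries (log2 fold change 1.25, SE 0.230, adjusted p = 0.000352, edgeR). When counts were scaled by library size alone, Cyp7b1 was not called at the study's limits. Cyp27a1 was 38.2 to 61.1 CPM in C57BL/6 without replicate 7, which had 12.8 CPM, and 9.63 to 29.5 CPM in Winnie-Prolapse. Its change of -1.08 passed the wider limits (adjusted p = 0.00510), and that of -1.22 without replicate 7 the study's (adjusted p = 0.000271). Cyp39a1, another oxysterol hydroxylase, had an estimate of -0.28 (SE 0.135, adjusted p = 0.0966).

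Few genes of the hormone and vitamin classes could be tested. Cyp11a1, which cleaves the side chain of cholesterol to start steroid synthesis, was 0.513 to 4.86 CPM in C57BL/6 without replicate 7, where it was at 0. In Winnie-Prolapse it was 0.0296 to 0.420 CPM (log2 fold change -2.54, SE 0.693, adjusted p = 0.00619, edgeR). It passed the filter on low counts through C57BL/6 and had 51 counts over the Winnie-Prolapse libraries, at most 13 in any. Cyp26b1, which breaks down retinoic acid, ranged from 0.983 to 7.12 CPM in C57BL/6 and from 1.21 to 18.0 CPM in Winnie-Prolapse and did not pass the test (1.22, SE 0.560, adjusted p = 0.0779). Cyp2r1, which activates vitamin D, was 0.747 to 1.76 CPM in C57BL/6 and 0.877 to 1.69 CPM in Winnie-Prolapse (0.43, SE 0.215, adjusted p = 0.10), and Cyp24a1, which inactivates it, had at most 3 counts in any library.

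The groups were without overlap in the Winnie-Prolapse against C57BL/6 comparison for 6 of the 37 members, all 6 lower: Cyp2c55, Cyp2c69, Cyp2d22, Cyp2d26, Cyp2d34 and Cyp4f16. Of all genes tested, 9.45% were lower and 6.5% higher without overlap. Leaving out C57BL/6 replicate 7 brought the lower members to 13, against 12.6% of all genes, and the higher to 1, Cyp2j6, against 7.9%.

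Markers of some cell types also differed between Winnie-Prolapse and C57BL/6, and others did not. The summed level of 10 markers of any epithelium was 9961 to 11940.1 CPM in C57BL/6 and 8219.7 to 14174 CPM in Winnie-Prolapse, and none of the 10 passed the test. The sum of 10 markers of differentiated colonocytes went from 8149 to 11651 CPM to 1938 to 7843 CPM, and 3 of the 10 fell at the study's limits: the carbonic anhydrase Car1 (-2.98), the chloride exchanger Slc26a3 (-2.55) and the sulfotransferase Sult1a1 (-2.14). At the wider limits 6 of the 10 were lower and 1, the keratin Krt20, was higher (0.87, adjusted p = 0.0397; named after its value was seen). Relative to the pan-epithelial sum, Cyp2c55 was 3.32 to 15.3% in C57BL/6 without replicate 7, which had 26.5%, and 0.00623 to 0.178% in Winnie-Prolapse, and Cyp2d22 was 0.389 to 0.628% and 0.0379 to 0.119%. Leukocyte markers summed to 308 to 551 CPM in C57BL/6 without replicate 7, which had 31.9 CPM, and to 697 to 1704 CPM in Winnie-Prolapse, with 6 of 10 higher, led by S100a9 (9.78), S100a8 (9.25) and Itgam (3.11). Much of the C57BL/6 sum was Ly6g: without it the sums were 53.0 to 195 CPM in C57BL/6 without replicate 7 and 176 to 1192 CPM in Winnie-Prolapse, and these ranges overlap. The 6 smooth muscle markers all fell at these limits. Of 6 hepatocyte markers, Alb was at most 4.12 CPM and Fgb at most 0.0806 CPM in any library, and the summed level was 43.1 to 65.3 CPM in C57BL/6 without replicate 7 and 10.6 to 33.5 CPM in Winnie-Prolapse, nearly all of it Ttr. The part of these cell types in the members' changes was not tested.

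Of the proteins that serve P450 enzymes, few changed at the study's limits. Among 10 redox partners, Fdxr fell at the study's limits, from 11.8 to 16.2 CPM to 5.40 to 9.57 CPM (log2 fold change -0.84, adjusted p = 7.36e-05, edgeR), and none rose. Por, named because most members depend on it, stood at 69.6 to 174 CPM in C57BL/6 and 69.2 to 118 CPM in Winnie-Prolapse (-0.59, adjusted p = 0.0118). Of 19 nuclear receptors and liver-type transcription factors known to regulate P450 genes, 18 were tested and 2 fell: Ppara (-1.56, adjusted p = 2.74e-05), the receptor that induces CYP4A genes, and the vitamin D receptor Vdr (-1.35, adjusted p = 0.000290). At the study's limits lower genes made up 8.47% of all genes in that fit, so 1 of 10 and 2 of 18 lie near that share. At the wider limits 2 of 10 redox partners and 5 of 18 regulators were lower and 0 higher. Of all genes, 17.7% were lower there. The summed level of the 19 regulators was 2459 to 3077 CPM in C57BL/6 and 1298 to 2240 CPM in Winnie-Prolapse, without overlap. The redox partner sums overlapped, at 801 to 985 CPM and 687 to 945 CPM.

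Winnie mice at 14 weeks showed no P450 gene past the study's limits. Of 38 members tested, 0 were called, 3 passed the wider limits and 13 had an unadjusted p under 0.05 (edgeR), which is 34.2% against 39.9% of all genes. DESeq2 called 1, Cyp2j6, where it called 4.31% of all genes. Over all 17289 genes tested, 0.0868% were higher and 0.00578% lower at the study's limits. The members at the wider limits were Cyp2d12 and Cyp11a1, lower, and Cyp2j6, higher, which is 5.26% and 2.63% of those tested against 8.53% and 7.42% of all genes. Cyp2j6 was 38.3 to 69.8 CPM (median 54.8) in Winnie (log2 fold change 0.63, SE 0.141, adjusted p = 0.00756, edgeR), with 2 of 7 libraries above the highest C57BL/6 library and 6 of 7 above the highest but replicate 7. Cyp2d12 was 14.1 to 134 CPM (median 45.7), lower than each C57BL/6 library but replicate 7 (log2 fold change -1.56, SE 0.491, adjusted p = 0.0306, and -1.74, adjusted p = 0.00360, without replicate 7). Cyp11a1, which passed the filter on low counts through C57BL/6, was 0.0338 to 0.848 CPM (-2.33, SE 0.762, adjusted p = 0.0354). Of the 15 fits that each left out 1 library, Cyp2j6 passed the wider limits in 12, Cyp2d12 in 9 and Cyp11a1 in 7. In males alone 13 of 38 members (34.2%, against 22.5% of all genes) passed the wider limits, and in females alone 0 of 38 (against 0.00579%); the test of that difference, the sex by group interaction, is given with the results on sex.

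No member was without overlap between Winnie and C57BL/6, where 1.17% of all genes were lower in every Winnie library. Without replicate 7 it was 1 member, Cyp2d12, against 1.8% of all genes. In that fit 3 members were lower, with Cyp27a1 added (-0.85, adjusted p = 0.00387), and 2 higher, with Cyp4f14 added (0.95, adjusted p = 0.0246), at the wider limits, which 8.14% and 8.16% of all genes passed.

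The spread within the Winnie group was wide. The levels of Cyp2c55 in the 3 males were 18.3, 11.6 and 332 CPM, and in the 4 females 1164, 768, 361 and 65.0 CPM. Thus 3 of 7 libraries lay below the C57BL/6 range and 4 within it (log2 fold change -1.29, SE 0.820, adjusted p = 0.253, edgeR). Cyp2c69 was 0.633, 0.224 and 0.887 CPM in the males and 12.1, 7.58, 3.77 and 0.703 CPM in the females, with 4 libraries below the C57BL/6 range and 1 above (log2 fold change -0.43, SE 0.650, adjusted p = 0.645). Cyp2d22 was below the C57BL/6 range in 6 of 7 Winnie libraries and at 65.7 CPM in replicate 5 (-0.71, SE 0.284, adjusted p = 0.0732). Replicate 5 held the highest Winnie level of Cyp2d12, Cyp2d22, Cyp2d34, Cyp3a13, Cyp4f16 and Cyp27a1. Without it 11 members passed the wider limits, 10 of them lower, and Cyp2j6 passed the study's, which 3.89% of all genes did in that fit against 0.0925% with the library. These 11 are 28.9% of the members tested, and 21.1% of all genes passed in the same fit, up from 15.9% with the library. The colonocyte marker sums were 6348, 3681 and 5504 CPM in the Winnie males and 10949, 11045, 10508 and 7548 CPM in the females. At the wider limits all 6 smooth muscle markers were lower in Winnie than in C57BL/6, and 4 of 9 leukocyte markers tested were higher. Of 10 colonocyte markers, 1 was lower and 1 higher. The part of these cell types in the Winnie levels was not tested.

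Winnie-Prolapse was then set against Winnie, with which it shares the genotype. No member passed the study's limits, nor did any of the 17041 genes tested (0%), although 20 of 34 members and 4743 of all genes had an unadjusted p under 0.05. DESeq2 called 8 of the 72 members it tested (11.1%) and 2.31% of all genes. At the wider limits 5 members were lower (14.7%), Cyp2c55, Cyp2c67, Cyp2c68, Cyp2c69 and Cyp2d22, and 1 was higher (2.94%), Cyp4f39, against 2.72% and 4.27% of all genes. Cyp2c68 was 32.8 to 116 CPM (median 69.1) in Winnie, above each Winnie-Prolapse library (log2 fold change -1.79, SE 0.302, adjusted p = 0.0106, edgeR). Cyp2c55 changed by -5.29 (SE 1.11, adjusted p = 0.0182) with overlapping groups, since Winnie replicates 1 and 2 at 18.3 and 11.6 CPM were within the Winnie-Prolapse range. Cyp2c69 changed by -4.58 (SE 0.991, adjusted p = 0.0191) and Cyp2d22 by -1.77 (SE 0.395, adjusted p = 0.0208). The count of 6 at the wider limits rested on the libraries used: it was 15 of 35 without Winnie-Prolapse replicate 3 (42.9%, against 10.9% of all genes), 11 of 36 without Winnie replicate 2 (30.6% against 11%), 20 of 37 in females alone (54.1% against 14.3%) and 0 of 35 in males alone (against 0%). At the same limits 2 of 10 colonocyte and 3 of 6 smooth muscle markers were lower in Winnie-Prolapse than in Winnie. Higher were 3 of 10 leukocyte markers and 4 of 4 squamous markers tested. The part of these cell types was not tested.

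A further 10 members averaged under 0.1 CPM in C57BL/6 and in Winnie and had over 10 counts in at least 1 Winnie-Prolapse library. They were chosen after their values were seen, by a limit on the mean and not by absence elsewhere: Cyp2j8 reached 0.308 CPM in Winnie. None passed the low-count filter of the group comparisons. In fits of Winnie-Prolapse against C57BL/6 without that filter, edgeR called Cyp2b19 and DESeq2 called Cyp2b19, Cyp17a1 and Cyp21a1, all higher, and DESeq2 called Cyp2b19 and Cyp21a1 against Winnie as well. Since their levels chose them, these calls are no support for the pattern. Cyp2b19, an arachidonic acid epoxygenase of skin keratinocytes, stood at 35.0 CPM in replicate 2, 17.8 in replicate 5, 8.23 in replicate 4 and 3.38 in replicate 6. It was at 0 in replicates 1 and 3 and at 0.0368 CPM in replicate 7, and it had at most 1 count in any C57BL/6 or Winnie library. The steroid synthesis genes Cyp17a1 and Cyp21a1 reached 4.87 CPM in replicate 5 and 2.97 CPM in replicate 2, Cyp3a57 reached 4.14 CPM in replicate 2, and Cyp2g1, known from olfactory mucosa, 1.99 CPM in replicate 5. Of the 10, 8 were highest in replicate 2 and 2 in replicate 5. Cyp4f39, which makes the very long hydroxylated fatty acids of the skin barrier, was tested. It was 0.109 to 0.926 CPM in C57BL/6, and in Winnie-Prolapse replicates 1 to 7 it was 0.207, 15.6, 0.121, 5.82, 12.7, 0.886 and 6.36 CPM (log2 fold change 3.55, SE 0.800, adjusted p = 0.00169, edgeR).

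**Figure D4:**
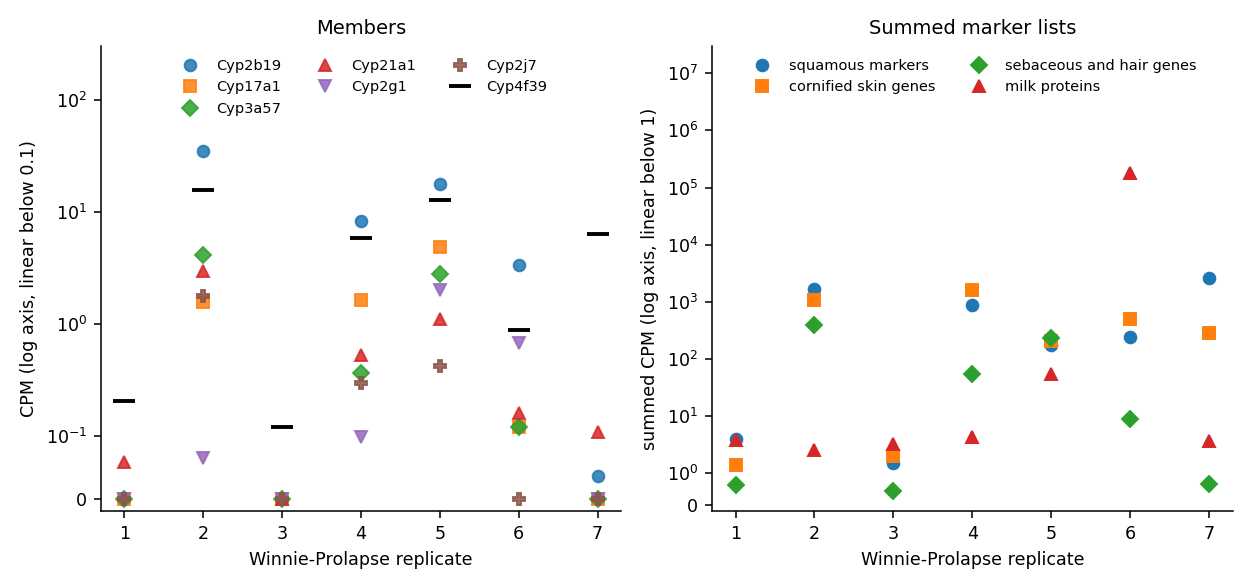
Level of 7 members (left, CPM, log axis, linear below 0.1) and summed level of 4 marker lists (right, CPM, log axis, linear below 1) in each of the 7 Winnie-Prolapse libraries. Cyp2b19 lies above 3 CPM in replicates 2, 4, 5 and 6, the libraries in which the sebaceous and hair genes sum to 8.74 CPM or more. That list and the cornified skin list were chosen after these values were seen. The cornified skin genes sum to 290 CPM in replicate 7, where Cyp2b19 is near 0.

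Markers of squamous epithelium were high in some of the same libraries, in another order. The sum of 8 squamous markers was at most 2.90 CPM in C57BL/6, and in Winnie-Prolapse replicates 1 to 7 it was 3.97, 1679, 1.51, 877, 175, 237 and 2641 CPM, with Krt5, Krt13 and Krt14 called higher in the group. Squamous markers were highest in replicate 7, where Cyp2b19 was near 0. A further pair of lists, chosen after these values were seen, were also read. Genes of cornified skin (Lor, Flg2, Krt1, Krt10, Krtdap) summed to 1.42, 1092, 1.97, 1597, 210, 491 and 290 CPM, and sebaceous and hair genes (Scd3, Elovl3, Awat2, Mc5r, Krt71) to 0.621, 388, 0.454, 53.6, 230, 8.74 and 0.662 CPM. Replicates 2, 5, 4 and 6 thus stand in the same order for Cyp2b19 and for the sebaceous and hair genes. Replicates 1, 3 and 7 are low in both. The cornified skin genes stand in another order, highest in replicate 4, and reach 290 CPM in replicate 7, where Cyp2b19 was near 0. Since both lists were chosen after the values were seen, the shared order is no support for a link. Milk protein genes made up 179624 CPM in replicate 6, which lowers the CPM of every other gene there. The part of other tissue in the levels of these members was not tested.

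Sex was compared over the 22 libraries with group as a covariate. None of 43 members tested differed between males and females (smallest adjusted p = 0.961, edgeR; 1 member, 2.33%, reached an unadjusted p below 0.05 against 4.62% of all genes, and DESeq2 called none), where 0.0687% of all genes did. No member had a sex by group interaction at an adjusted p under 0.05 in Winnie (39 tested, 0.247% of all genes called, with 8 members, 20.5%, and 18.2% of all genes at an unadjusted p below 0.05) or in Winnie-Prolapse (43 tested, 0% of all genes called, with 2 members, 4.65%, and 4.40% of all genes at an unadjusted p below 0.05). Cyp2d10 came nearest in Winnie, with an adjusted p of 0.0644 and a log2 fold change in males minus that in females of -1.499 (SE 0.333). It passed without C57BL/6 replicate 7 (adjusted p = 0.0333) and without Winnie replicate 1 (0.0357), and Cyp2c69 passed without Winnie replicate 7 (-3.54, adjusted p = 0.0396). In these fits 1 of 39 members passed (2.56%), against 1.37%, 1.7% and 0.863% of all genes in turn. With every library 0.247% of all genes did.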

How the data were processed

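The authors prepared stranded poly(A) libraries from distal colon, sequenced them in paired ends, ran the RNAsik pipeline on GRCm38 and deposited whole-number read counts per gene (STAR and featureCounts stand in the submitters' processing notes). The annotation release, the strand setting and what was done with reads that match several genes are not given in the sources used here. Symbols, biotypes and counts came from the table, and positions and exon lengths from GENCODE M21 (GRCm38), matched by Ensembl identifier for 85 of 85 members. The biotype column left out 26 genes of the name pattern, 11 of which GENCODE calls protein coding, and kept the pseudogene Cyp2d37-ps. Promoters came from RefSeq. No row lacked a gene name.

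Members and lists were chosen with earlier results of these data known. Samples were grouped by their labels, and replicate numbers follow the accession order and pair no mice. Each group comparison was fitted on its own 2 groups with edgeR 4.0.16 (R 4.3.3; quasi-likelihood F test, TMM, filterByExpr, Benjamini-Hochberg over all genes tested), and called at the study's limits, an adjusted p under 0.001 and 1.5-fold. Sex was fitted over 22 libraries with group as a covariate, and for the interaction the limit was an adjusted p of 0.05. CPM are counts scaled to a library total of 1000000. Named were the marker members Cyp2c55 and Cyp2c69, up to 10 called members a comparison, the 10 highest in C57BL/6 per kilobase and the top 2 tested of each class; other members are named as passing the wider limits, as apart in 1 library or as chosen after their values were seen. Alternatives were DESeq2 1.42.0, limma-voom (limma 3.58.1), library size alone, the bias-adjusted and robust fits, other filters and limits, sex as a covariate, 1 sex alone, 1 fit of all groups and leaving out each library. Between libraries of a group, chi-square over its degrees of freedom was at least 28.8, so none was counted as a duplicate. On simulated data for Winnie-Prolapse against C57BL/6 the test called 70 of 200 genes with a 2-fold change and, in a second run, 177 of 200 with a 4-fold change. For Winnie against C57BL/6 it called 81 and 157 of 200, and for Winnie-Prolapse against Winnie 39 and 160 of 200. Each run had 0 false calls. Nothing says that the mice came from separate litters or cages.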

Additional observations from a re-analysis of the deposited data

Results flagged for a closer look

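For the 19 members named by rule, each group's libraries were searched for 1 library apart from the rest by Dixon's ratio on log2 CPM. Of 57 groups of values 9 had one, and chance gives about 1 in 20. The library labelled C57BL/6 replicate 7 accounts for 7 of the 9. It was lowest for Cyp2a12 (0 CPM, others 0.386 to 1.03), Cyp2c68 (8.66 CPM, others 77.6 to 138), Cyp2d10 (31.9 CPM, others 65.7 to 96.0), Cyp2d12 (10.2 CPM, others 159 to 229) and Cyp27a1 (12.8 CPM, others 38.2 to 61.1), and highest for Cyp2j6 (57.4 CPM, others 30.0 to 40.0) and Cyp4f14 (248 CPM, others 37.8 to 70.6). Its low Hox gene levels, given with the results, were seen in the same library, and their part was not tested.

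Winnie-Prolapse replicate 6 was lowest for Cyp2c68 at 9.67 CPM, where the others had 18.6 to 24.7 CPM. Milk protein genes took 179624 CPM in that library, and their part was not tested. Winnie-Prolapse replicate 3 was lowest for Cyp2r1 at 0.877 CPM, where the others had 1.39 to 1.69 CPM.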

How the results depend on the processing

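In Winnie-Prolapse against C57BL/6, 9 members were called. The count was 22 with DESeq2 (29.7% of the 74 members it tested, against 16.9% of all genes), 25 at an adjusted p under 0.05, 2 in males alone (5.26% against 1.76%) and 1 in females alone (2.70% against 1.45%), and 7 to 14 when each library was left out in turn, 14 both without C57BL/6 replicate 7 (37.8% against 20.1% of all genes) and without Winnie-Prolapse replicate 3 (37.8% against 20.8%). Cyp2c55, Cyp2c68, Cyp2c69, Cyp2d22, Cyp4f16, Cyp2j6 and Cyp7b1 were called in each of the 15 fits that left out 1 library. Other alternatives ended some calls: Cyp2c68 and Cyp2a12 were not called with limma-voom, nor Cyp7b1 with library size alone. With C57BL/6 replicate 7 and Winnie-Prolapse replicate 6 both left out, Cyp4f16 and Cyp2d34 were not called. That fit called 10 of 37 members (27%), against 17.5% of all genes. Cyp2d34 was also not called with sex as a covariate or with no filter on low counts. In Winnie, 0 members became 1 with DESeq2, 3 at an adjusted p under 0.05, and 0 to 1 over the fits that left out a library, the 1 without Winnie replicate 5, where the share of all genes called went from 0.0925% to 3.89%. In Winnie-Prolapse against Winnie, 0 became 8 with DESeq2 and 6 at an adjusted p under 0.05, and stayed 0 in each fit without a library. The sex by group count in Winnie went from 0 to 1 over the fits that left out a library. Where it was 1 (2.56% of the members tested), 0.863% to 1.7% of all genes passed, against 0.247% with every library. In Winnie-Prolapse this count stayed 0, as it did for all genes. Where a count moved, the cause was not tested. Of 883 alternative values for 34 log2 fold changes past the wider limits, none changed sign, 33 lost and 39 gained the study's call. The mean summed CPM of the members in C57BL/6 went from 2618 to 1607 without Cyp2c55. No paired analysis was possible because the labels give no shared replicate numbers. Depth limits the members with few counts in every library: 35 had at most 10 in any.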

Other observations

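The 11 genes of the same name pattern that GENCODE calls protein coding but the table's biotype column does not were also read, after the data were seen. Cyp2u1, a fatty acid hydroxylase, was 2.61 to 15.7 CPM in C57BL/6, 1.24 to 5.68 CPM in Winnie and 0.725 to 1.84 CPM in Winnie-Prolapse, and fell in Winnie-Prolapse against C57BL/6 (log2 fold change -2.61, SE 0.366, adjusted p = 3.73e-05, edgeR). Cyp4f13 was 51.3 to 58.6 CPM in C57BL/6 and 13.1 to 30.3 CPM in Winnie-Prolapse (-1.20, SE 0.164, adjusted p = 2.85e-05). Cyp2s1, an enzyme of epithelia, was 172 to 264 CPM in C57BL/6 and 15.1 to 132 CPM in Winnie-Prolapse (-1.25, SE 0.329, adjusted p = 0.00492). Cyp20a1 had an estimate of 0.10 (SE 0.0832, adjusted p = 0.320). With these genes the called count in that comparison went from 9 to 11. In the same fit 18.3% of all genes were called.

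Cyp2j12, which had at most 1 count in any C57BL/6 or Winnie library, stood at 4.88, 2.09, 0.529 and 0.121 CPM in Winnie-Prolapse replicates 2, 5, 4 and 6 and at 0 in replicates 1, 3 and 7. Cyp2c66 was seen in the library labelled C57BL/6 replicate 7 alone, at 0.362 CPM.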
